A study of Mus musculus with 9 samples.

Results

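The DNA damage response and repair genes described here are 51 genes of checkpoint signalling and of the main repair pathways. Their members are all introns that the authors' deposited table lists under one of these gene symbols. Of the 51 genes, 49 had at least 1 intron in the table, with 274 introns in all, out of 22228 introns of 7016 genes. Claspn and Lig4 had no listed intron.

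Cells that meet broken or modified DNA activate the kinases Atm and Atr, which halt the cell cycle through Chek1 and Chek2 and recruit repair factors to chromatin. Double-strand breaks are joined by end joining or copied from a sister chromatid by homologous recombination. Crosslinks, damaged bases, mismatches and bulky lesions are removed by the Fanconi anaemia, base excision, mismatch and nucleotide excision pathways. Embryonic stem cells divide quickly with a short gap before DNA replication. A detained intron, in the series' terms, stays in polyadenylated RNA whose other introns have been spliced, and is spliced later.

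The study sequenced polyadenylated RNA of the mouse embryonic stem cell line v6.5, for which the labels name no engineered allele. Cultures were given either KH-CB19 or its solvent DMSO. KH-CB19 inhibits Clk kinases, which phosphorylate splicing factors of the SR family. The groups were KH-CB19 harvested 2 h after addition, DMSO harvested at 2 h, KH-CB19 harvested at once (0 h) and DMSO harvested at 0 h. Each group had 2 libraries from independent biological replicates, per the labels' protocols, and a further untreated library was not analysed here.

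All values are the authors' means over the 2 libraries of a group, so no replicate spread stands beside them and no new test was made. Over the whole table the observed intron reads at 0 h, which are unscaled means, summed to 1002850 in KH-CB19 and 1286590 in DMSO. The sums cover the introns with a value in each group, 18740 in KH-CB19 and 21568 in DMSO. At 2 h the normalised means of the 3454 detained introns summed to 392295 reads in KH-CB19 and 369104 reads in DMSO. RNA integrity numbers were 9.1 and 8.8 in the KH-CB19 libraries and 9.3 in both DMSO libraries at 2 h, and their part in the 2 h values was not tested. Of 10 stem cell markers, 9 had an intron in the table, as did 1 of 18 markers of other cell types (Fn1).

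Among the members, the results turned on a pair of introns whose reads rose with KH-CB19 and on a few very short intervals with the highest excess of reads. The junctions of the pair are shown first, to place each intron in the coding sequence that its removal joins. The letters come from GENCODE M21 transcripts, 5′ to 3′, with the end of the upstream exon in lower case and the start of the downstream exon in capitals. Intron 25 of Xrcc5 lies at chr1:72428303-72429931 (mm9, plus strand) and intron 19 of Blm at chr7:87605739-87608658 (mm9, minus strand). Both lie between coding exons, and they correspond to intron 17 of 20 and intron 19 of 21 in the GENCODE transcripts they matched.
Xrcc5 intron 25 junction: gaggaggccattcagTTTTCAGAAGAACAG
Blm intron 19 junction: tcaaaaagcttgcagAATCTTTATCTTCTG

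Intron 35 of Rif1, at chr2:51965912-51966032 (mm9, plus strand), and intron 4 of Msh6, at chr17:88384440-88384542 (mm9, plus strand), are shown whole. They had the most normalised reads per kb at 2 h of the detained introns below, and GENCODE M21 annotates each stretch as part of a coding exon of the same gene. Capitals mark the first and last dinucleotide, which in both are the GT and AG found at the ends of most introns.
Rif1 intron 35: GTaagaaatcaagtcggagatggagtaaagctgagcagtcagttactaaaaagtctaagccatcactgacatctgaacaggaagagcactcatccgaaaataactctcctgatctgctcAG
Msh6 intron 4: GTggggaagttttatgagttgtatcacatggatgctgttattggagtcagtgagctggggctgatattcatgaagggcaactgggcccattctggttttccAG

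The first comparison asked which detained introns of these genes changed within 2 h of Clk inhibition. The authors' deposited table classed 67 of the 274 member introns as detained, in 36 genes, and gave 2 h values for these alone. Reads rose in 2 of the 67 (2.99%) at the threshold used throughout, an adjusted p under 0.05 as the authors' deposited table gives it. Over all 3454 detained introns 5.47% rose. Reads fell in 0 of the 67, against 4.17% of all detained introns, by the same adjusted p of the authors' deposited table. DESeq is the statistical tool in the submitters' processing notes, and unadjusted p-values were not given in the sources used here. Intron 25 of Xrcc5 and intron 19 of Blm were the members that rose. Both shares lie below those of the whole table, so the calls give no result about repair genes as a group.

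Xrcc5 encodes a subunit of Ku, the ring that binds broken DNA ends and starts end joining. Its intron 25 had a mean of 151.1 normalised reads in KH-CB19 and 66.3 in DMSO at 2 h, per the authors' deposited table. That is a 2.28-fold difference, a log2 ratio of 1.19, and the adjusted p was 0.000273 in the authors' deposited table. Whether more transcripts or slower splicing lay behind a change in intron reads cannot be told apart, because the table holds no reads of exons.

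At 0 h the same intron already held more reads than expected in both groups. Its means in the authors' deposited table were 69.0 observed and 9.5 expected reads in KH-CB19, and 96.0 observed and 12.5 expected reads in DMSO. On the log2 scale of the authors' deposited table the excess was 2.86 in KH-CB19 and 2.94 in DMSO, so the groups were close at 0 h. The neighbouring intron 24, which was not classed as detained and has no 2 h value, had 122.0 observed and 32.0 expected reads in KH-CB19, and 157.0 observed and 41.5 expected reads in DMSO, in the authors' deposited table. Introns 6 and 22 of the gene passed the threshold in neither group at 0 h.

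Blm encodes a RecQ helicase that dissolves recombination intermediates. Its intron 19 had 532.2 normalised reads in KH-CB19 and 237.7 in DMSO at 2 h, per the authors' deposited table, a 2.24-fold difference (log2 ratio 1.16, adjusted p = 0.000843). The next listed intron, 20, had 121.0 normalised reads in KH-CB19 and 98.3 in DMSO, with a log2 ratio of 0.30 and an adjusted p of 0.813 in the authors' deposited table. The difference between these 2 introns of one gene was not tested. At 0 h, intron 19 had 240.0 observed and 29.5 expected reads in KH-CB19, and 326.5 observed and 39.0 expected reads in DMSO, per the authors' deposited table. It held 55.0% of all reads listed for Blm introns in KH-CB19 and 55.5% in DMSO. Intron 12, upstream, was below expectation in both groups, with 19.5 observed and 61.5 expected reads in KH-CB19 and 22.5 observed and 82.0 expected reads in DMSO, per the authors' deposited table.

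**Figure D1:**
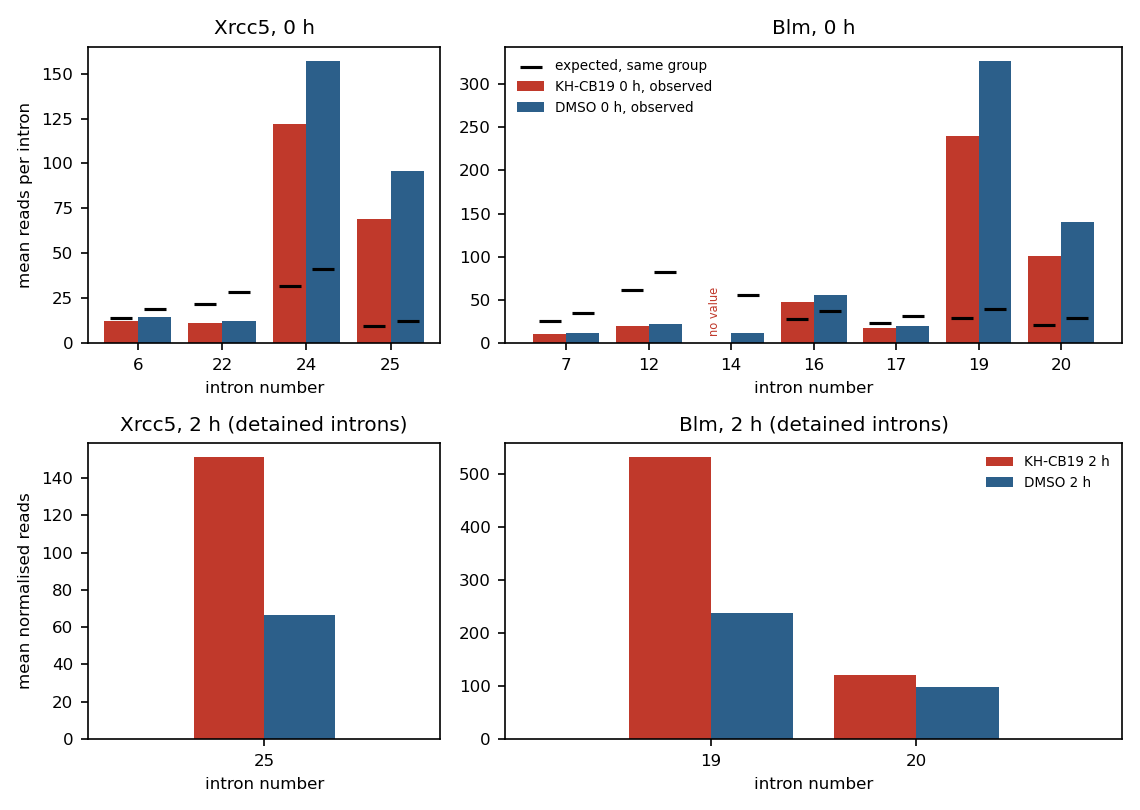
Top: mean observed reads per listed intron of Xrcc5 and Blm at 0 h (bars; KH-CB19 red, DMSO blue) with the authors' expected reads (black lines); the authors gave no KH-CB19 value for Blm intron 14. Bottom: mean normalised reads of the detained introns at 2 h, where Xrcc5 intron 25 had 151.1 reads in KH-CB19 and 66.3 in DMSO, and Blm intron 19 had 532.2 in KH-CB19 and 237.7 in DMSO.

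The other 65 detained introns passed the threshold in neither direction. Over the 67, the log2 ratio, KH-CB19 over DMSO, had a median of 0.03 and quartiles of −0.23 and 0.36, against a median of −0.0016 over all 3454 detained introns in the authors' deposited table. The median moved with the reads required: where the mean over both 2 h groups was 50 reads or more, it was 0.24 among 34 members and 0.07 among 2026 introns of the whole table, and over genes it was 0.0868 among members. Ratios were above 0 in 36 introns and below 0 in 31, and 48 lay within 0.5 of 0 on the log2 scale. Their SD across introns was 0.56 among members and 0.60 in the whole table, which is a spread between introns and not between replicates. Ratios spread more where reads were few, with an SD of 0.65 for the 33 member introns whose mean over both 2 h groups was under 50 reads, and 0.43 for the 34 with at least 50.

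**Figure D2:**
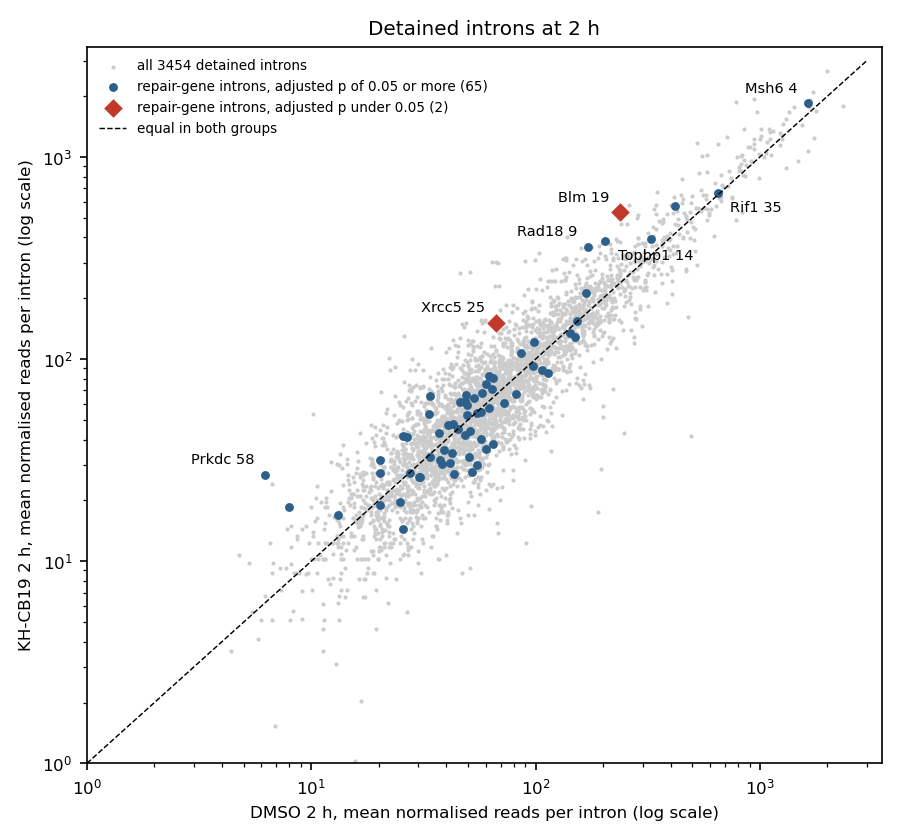
Mean normalised reads of each detained intron in KH-CB19 (vertical, log scale) against DMSO (horizontal, log scale) at 2 h; grey, all 3454 detained introns; blue and red, the 67 of DNA damage genes. The red points, Xrcc5 intron 25 and Blm intron 19, lie above the line of equal reads, while Prkdc intron 58, at 26.8 reads in KH-CB19 and 6.2 in DMSO, lies further from it at low depth.

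In checkpoint signalling, 7 introns of 5 genes were detained, and 0 passed the threshold at 2 h. Intron 14 of Topbp1, an activator of Atr, had 384.1 normalised reads in KH-CB19 and 204.9 in DMSO in the authors' deposited table (log2 ratio 0.91, adjusted p = 0.380). Its intron 27 had 32.9 in KH-CB19 and 50.3 in DMSO (log2 ratio −0.61, adjusted p = 0.366), per the authors' deposited table. For the effector kinases, intron 3 of Chek1 had 41.7 reads in KH-CB19 and 25.6 in DMSO (adjusted p = 0.636 in the authors' deposited table). The detained introns of Chek2 differed in sign. Intron 14 of Chek2 had 29.8 reads in KH-CB19 and 55.1 in DMSO, and its intron 15 had 80.6 in KH-CB19 and 64.3 in DMSO. Their adjusted p-values were 0.122 and 0.613 in the authors' deposited table. Atm, the kinase that responds to double-strand breaks, had a single detained intron with 19.5 reads in KH-CB19 and 24.9 in DMSO at 2 h, per the authors' deposited table. Atr, Rad9 and Rad17, the kinase and the parts of the clamp and clamp loader that act with it, had listed introns but none that was classed as detained.

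Among genes that signal breaks on chromatin, 10 introns were detained, and 0 passed the threshold at 2 h. Intron 9 of Rad18, a ubiquitin ligase, is 15440 bp long and had 359.2 normalised reads in KH-CB19 and 170.8 in DMSO in the authors' deposited table. With a log2 ratio of 1.07 it was nearly as far from 0 as Blm intron 19, yet its adjusted p was 0.150 in the authors' deposited table. Intron 24 of Trp53bp1, which restrains the trimming of DNA ends, had 65.4 reads in KH-CB19 and 33.9 in DMSO (log2 ratio 0.95, adjusted p = 0.475), per the authors' deposited table. Rif1, an effector of Trp53bp1, had 3 detained introns, numbers 35, 37 and 42, at log2 ratios by the authors' deposited table of 0.03, 0.16 and 0.34. Rnf8, a ubiquitin ligase at breaks, had 4, numbers 3, 6, 8 and 30, at −0.41, −0.12, −0.28 and −0.22 on the log2 scale of the authors' deposited table. By exact length and position, 8 of the 13 introns listed under Rnf8, intron 30 among them, matched introns of Cmtr1 in GENCODE M21, so their assignment to Rnf8 is uncertain.

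Homologous recombination genes had 10 detained introns in 7 genes, Blm among them. Brca1 and its partner Bard1, Palb2, Brca2 and the annealing factor Rad52 gave log2 ratios between −0.25 (Brca1 intron 19) and 0.42 (Brca2 intron 18) in the authors' deposited table. Intron 13 of Mre11a, the nuclease of the complex that opens breaks for repair, had 36.0 normalised reads in KH-CB19 and 60.2 in DMSO (log2 ratio −0.74, adjusted p = 0.189), per the authors' deposited table. Its partners Rad50 and Nbn had no detained intron. Introns 2 and 23 of Rad50 and intron 12 of Nbn were nevertheless above expectation in both groups at 0 h. In end joining, intron 58 of Prkdc, the catalytic subunit of the kinase that Ku recruits, had 26.8 normalised reads in KH-CB19 and 6.2 in DMSO, per the authors' deposited table. That is the largest log2 ratio among the 67, 2.11, with an adjusted p of 0.151 in the authors' deposited table. Intron 10 of Xrcc6, the other Ku subunit, had 30.3 reads in KH-CB19 and 38.4 in DMSO (log2 ratio −0.34, adjusted p = 0.718), per the authors' deposited table.

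**Figure D3:**
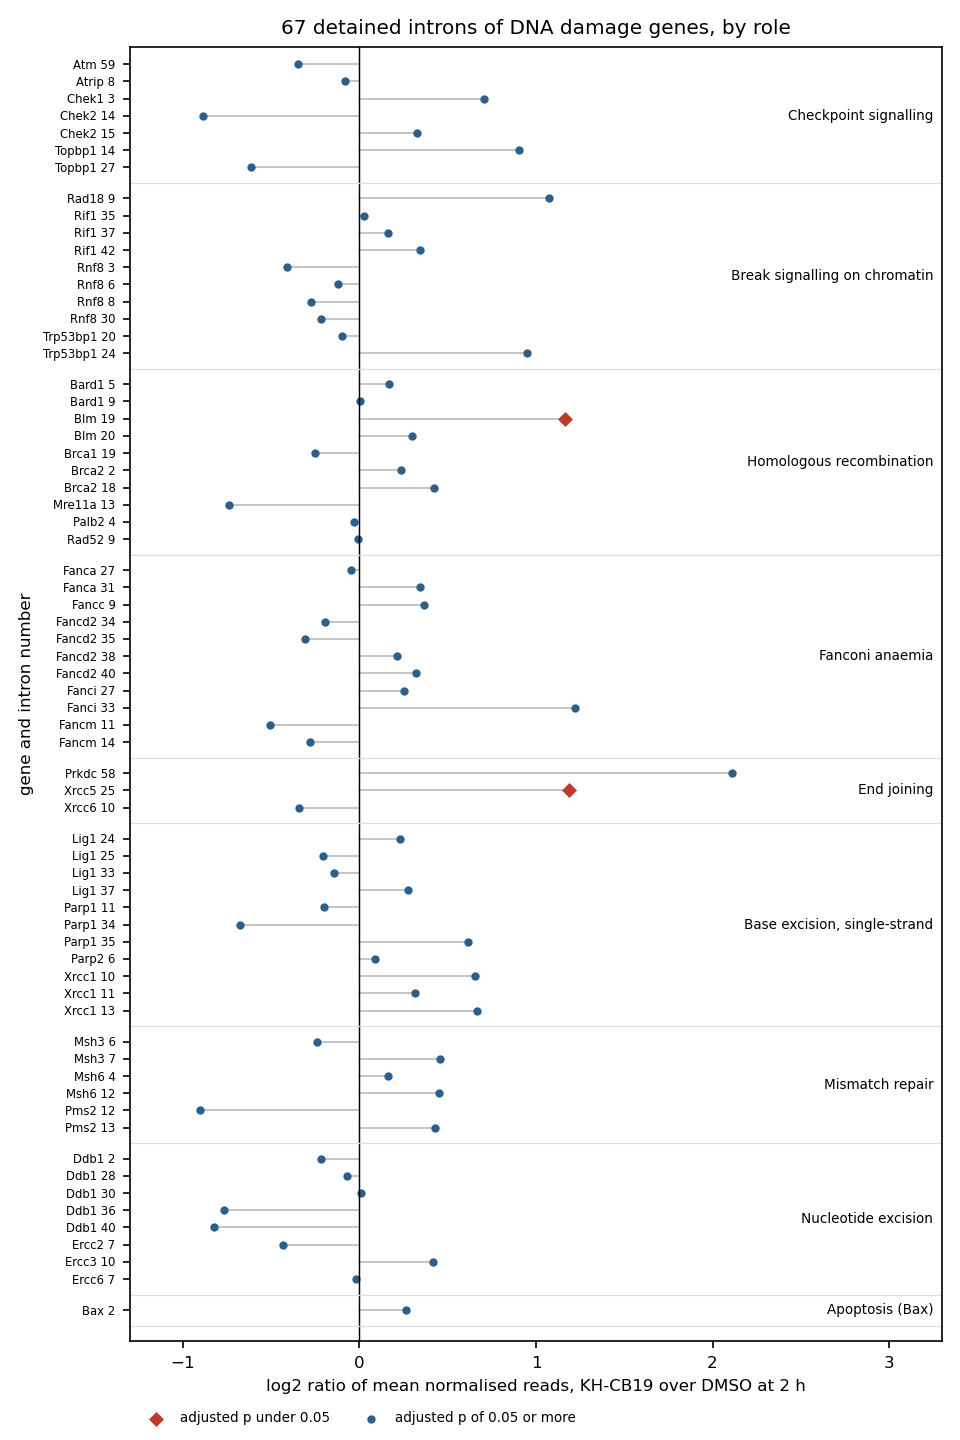
The log2 ratio of mean normalised reads, KH-CB19 over DMSO at 2 h, for each of the 67 detained introns (rows: gene and intron number), grouped by role; red diamonds have an adjusted p under 0.05. Ratios ran from −0.90 (Pms2 intron 12) to 2.11 (Prkdc intron 58), and points of both signs occur in every role with more than 1 detained intron.

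Fanconi anaemia genes had 11 detained introns with a median log2 ratio of 0.21 at 2 h, and 0 passed the threshold. Fancd2, the clamp subunit that is ubiquitinated at crosslinks, had 4. By the authors' deposited table, introns 34 and 35 of Fancd2 lay at −0.20 and −0.31 on the log2 scale, and introns 38 and 40 at 0.21 and 0.32. Intron 33 of its partner Fanci had 18.4 normalised reads in KH-CB19 and 7.92 in DMSO (log2 ratio 1.22, adjusted p = 0.311), per the authors' deposited table. Intron 11 of Fancm, a translocase that recognises stalled forks, had 40.1 in KH-CB19 and 56.8 in DMSO (log2 ratio −0.50, adjusted p = 0.440), per the authors' deposited table.

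Base excision and single-strand break repair also had 11 detained introns, with a median log2 ratio of 0.23 and 0 past the threshold. For Parp1, which senses strand breaks, the log2 ratios of introns 11, 34 and 35 were −0.20, −0.68 and 0.61, per the authors' deposited table. The scaffold Xrcc1 had log2 ratios of 0.65 (intron 10), 0.31 (intron 11) and 0.67 (intron 13), for which the adjusted p-values of the authors' deposited table were 0.455, 0.722 and 0.530. Introns 24, 25, 33 and 37 of the ligase gene Lig1 were at 0.23, −0.21, −0.14 and 0.27 on the log2 scale of the authors' deposited table. All detained introns of Xrcc1 thus lay above 0, while those of Parp1 and Lig1 lay on both sides.

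Mismatch repair had 6 detained introns in Msh3, Msh6 and Pms2. Msh6, which recognises single mismatches, held the most reads of any member: intron 4 had 1838.9 normalised reads in KH-CB19 and 1643.1 in DMSO (log2 ratio 0.16, adjusted p = 0.670), and intron 12 had 574.8 in KH-CB19 and 420.0 in DMSO (log2 ratio 0.45, adjusted p = 0.216), per the authors' deposited table. At this depth, differences of 1.12-fold and 1.37-fold did not pass. Intron 12 of Pms2, the nuclease subunit of the complex that acts after mismatch recognition, had 27.8 normalised reads in KH-CB19 and 51.9 in DMSO in the authors' deposited table (log2 ratio −0.90, adjusted p = 0.129).

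Nucleotide excision repair had 8 detained introns, with a median log2 ratio of −0.14. Ddb1, the adaptor that carries damage sensors to a ubiquitin ligase, had 5, more than any other member. These were introns 2, 28, 30, 36 and 40, at −0.22, −0.07, 0.01, −0.77 and −0.83 on the log2 scale of the authors' deposited table. Introns 2 and 30 matched no intron of Ddb1 in GENCODE M21, and both overlap annotated exons of the gene. Intron 36 had 38.0 normalised reads in KH-CB19 and 64.6 in DMSO, with an adjusted p of 0.156 in the authors' deposited table. The helicase genes Ercc2 and Ercc3 had 1 each, at −0.43 and 0.42 by the authors' deposited table. Bax, the apoptosis effector of the list, had 394.2 normalised reads in KH-CB19 and 328.1 in DMSO for intron 2 (log2 ratio 0.26, adjusted p = 0.488), per the authors' deposited table. Of the 19 genes with at least 2 detained introns, 10 had ratios of both signs.

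The second comparison set the observed reads of each intron beside the reads the authors expected for it at 0 h. Among member introns with a value, 88 of 226 were above expectation in KH-CB19 (38.9%) and 95 of 266 in DMSO (35.7%), by the adjusted p of the authors' deposited table. The shares over the whole table were 27.6% in KH-CB19 and 28.2% in DMSO. Below expectation were 9 of 226 member introns in KH-CB19 and 20 of 266 in DMSO in the authors' deposited table, against 8.93% and 10.9% of all introns with a value. Detained introns made up most of the excess: 64 of 67 in KH-CB19 and 67 of 67 in DMSO were above. Nearly all detained introns of the whole table were above too, 3207 of 3423 with a value in KH-CB19 and 3408 of 3453 in DMSO. The exceptions among members in KH-CB19 were Rif1 intron 37, Fanci intron 33 and Pms2 intron 13. For the 67, the median fold over expectation was 3.73 in KH-CB19 and 3.92 in DMSO. The same medians over all detained introns of the table were 3.52 in KH-CB19 and 3.56 in DMSO. How the authors chose the detained class is not given in the sources used here; a class drawn from these ratios would hold the excess by construction.

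Members reached the detained class more often than introns of the table at large. The share was 24.5% of member introns against 15.5% of all introns, and 36 of 49 member genes (73.5%) against 34.6% of all genes had at least 1. Member genes also had more listed introns, 5.59 per gene against 3.17. Among introns with at least 50 observed reads in DMSO at 0 h, 68.6% of 70 member introns and 42.6% of 5662 introns in the table were detained. Whether these shares are particular to repair genes was not tested. Of the 36 genes, 17 had 1 detained intron, 12 had 2, 3 had 3 (Parp1, Rif1 and Xrcc1), 3 had 4 (Fancd2, Lig1 and Rnf8) and Ddb1 had 5. The 13 genes with listed but no detained introns were Atr, Rad9, Rad17, Mdc1, Rnf168, Brip1, Rad50, Nbn, Wrn, Fancl, Lig3, Xpc and Ercc5. Among introns not classed as detained, 24 of 159 members with a value were above expectation in KH-CB19 and 28 of 199 in DMSO. The whole table had 1959 of 15317 in KH-CB19 and 2678 of 18115 in DMSO, and its introns above in both groups were not counted. Of the members, 17 introns in 16 genes were above expectation in both groups without being classed as detained. Intron 49 of Prkdc was among them, with 31.5 observed and 3.0 expected reads in KH-CB19 and 47.5 observed and 4.0 expected reads in DMSO, in the authors' deposited table.

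At 0 h the excess was nearly the same with and without the inhibitor. The log2 excess in KH-CB19 minus that in DMSO had a median of −0.04 over the 67 detained introns, an SD across introns of 0.23 and a range from −0.58 (Fanci intron 33) to 0.53 (Atm intron 59). Intron 59 of Atm had 38.0 observed and 2.0 expected reads in KH-CB19 and 39.5 observed and 3.0 expected reads in DMSO in the authors' deposited table, and its expected means thus differ by 1 read. By role, the median log2 excess of detained introns ran from 1.67 in KH-CB19 and 1.66 in DMSO for base excision genes to 2.86 in KH-CB19 and 2.94 in DMSO for the 3 introns of end joining genes.

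**Figure D4:**
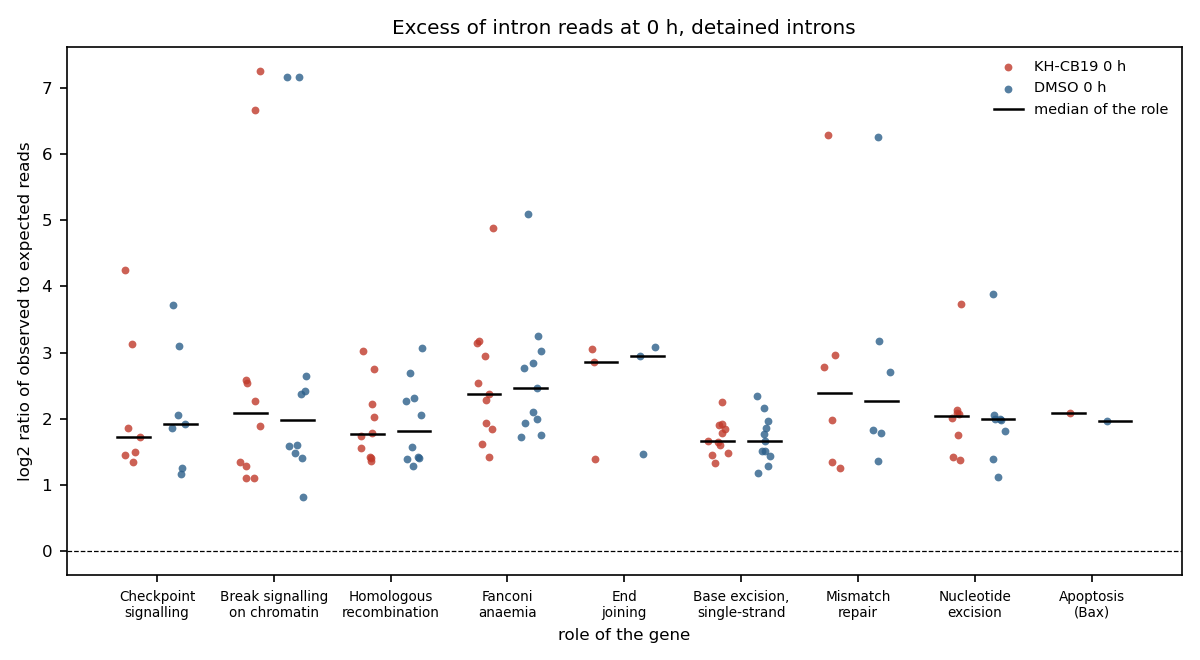
The log2 ratio of observed to expected reads at 0 h for the 67 detained introns by role (KH-CB19 red, left of DMSO, blue); black lines are medians of the role, and the dashed line marks equality. The highest points are Rif1 intron 35 at 7.26 in KH-CB19 and 7.17 in DMSO and Rnf8 intron 3 at 6.67 in KH-CB19 and 7.16 in DMSO.

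The introns furthest above expectation were among the shortest. Intron 35 of Rif1, the 121 bp stretch printed above, had 612.0 observed and 4.0 expected reads in KH-CB19 and 864.0 observed and 6.0 expected reads in DMSO in the authors' deposited table. Intron 3 of Rnf8, of 104 bp, had 102.0 observed and 1.0 expected reads in KH-CB19 and 143.5 observed and 1.0 expected reads in DMSO, by the authors' deposited table. Both have expected means of few reads, so the size of their ratios rests on these. Intron 4 of Msh6, of 103 bp, had 1376.0 observed and 17.5 expected reads in KH-CB19 and 2219.0 observed and 29.0 expected reads in DMSO in the authors' deposited table. Intron 14 of Fancm, of 216 bp, followed with 89.0 observed and 3.0 expected reads in KH-CB19 and 137.0 observed and 4.0 expected reads in DMSO, per the authors' deposited table. These 4 and intron 2 of Bax, lie wholly inside an exon of a protein-coding GENCODE M21 transcript of their own gene. The containing exons are 3090 bp long in Rif1, 2536 bp in Msh6, 1864 bp in Fancm, 667 bp in Rnf8 and 612 bp in Bax. Reads of an RNA that keeps the whole exon and reads of an unspliced intron cannot be told apart there.

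Such intervals made up 5 of 67 detained member introns (7.46%), against 3.31% of the 3198 detained introns of the table whose genes could be placed. Among the 207 other member introns there were 0, and the share was also low, 0.552%, among the 17218 other placed introns of the table. The 5 detained member intervals had a median log2 excess in DMSO of 6.26 and ran from 1.97 to 7.17. The other 62 detained member introns had a median of 1.93 and a highest value of 3.88. Over the whole table the medians were lower, 3.31 for 106 such detained intervals and 1.80 for the other 3092 placed detained introns. The share of a gene's listed intron reads that such an interval held varied. Intron 4 of Msh6 held 71.5% of the reads listed for Msh6 introns in KH-CB19 and 70.8% in DMSO, and intron 35 of Rif1 held 72.2% of those of Rif1 in KH-CB19 and 72.7% in DMSO. The share was 69.9% in KH-CB19 and 64.1% in DMSO for intron 2 of Bax, and 46.6% in KH-CB19 and 50.1% in DMSO for intron 14 of Fancm. It was 23.4% in KH-CB19 and 25.1% in DMSO for intron 3 of Rnf8. The Rnf8 share was taken over all 13 introns listed under Rnf8, of which 8 matched introns of Cmtr1. Intron 12 of Msh6 matched no intron of the gene in GENCODE M21, and 200 of its bases lie in an exon of a protein-coding Msh6 transcript. Exon and intron reads cannot be told apart over those bases. Apart from intron 12, the other introns of Msh6 lay far below expectation. Intron 2, for example, had 68.0 observed and 556.5 expected reads in KH-CB19 and 98.0 observed and 907.5 expected reads in DMSO in the authors' deposited table, which are log2 ratios of −3.03 and −3.21. Intron 10 of Msh6 had log2 ratios of −2.62 in KH-CB19 and −2.85 in DMSO, and intron 7 of Bax −1.39 in KH-CB19 and −1.07 in DMSO, in the authors' deposited table. Intron 23 of Rif1 and intron 2 of Xrcc1, at −0.73 and −0.71, passed the threshold in DMSO and not in KH-CB19, where the authors' deposited table gave −0.59 and −0.66; the difference between the groups was not tested.

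Outside these intervals, the highest excess in DMSO at 0 h among introns with at least 50 observed reads there belonged to 4 introns of 2543 to 2955 bp. By the authors' deposited table, their log2 ratios were 3.17 in KH-CB19 and 3.24 in DMSO for intron 31 of Fanca, and 2.96 in KH-CB19 and 3.17 in DMSO for intron 7 of Msh3, which had 39.0 observed reads in KH-CB19. They were 3.13 in KH-CB19 and 3.11 in DMSO for intron 14 of Topbp1, and 3.02 in KH-CB19 and 3.07 in DMSO for intron 19 of Blm, per the authors' deposited table. The order differed in KH-CB19, where intron 40 of Fancd2, of 1133 bp, had a log2 ratio of 3.14 by the authors' deposited table, against 3.02 in DMSO. Fanca belongs to the core complex that ubiquitinates Fancd2, and Msh3 recognises small loops. Of these 5, intron 19 of Blm alone passed the threshold at 2 h.

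**Figure D5:**
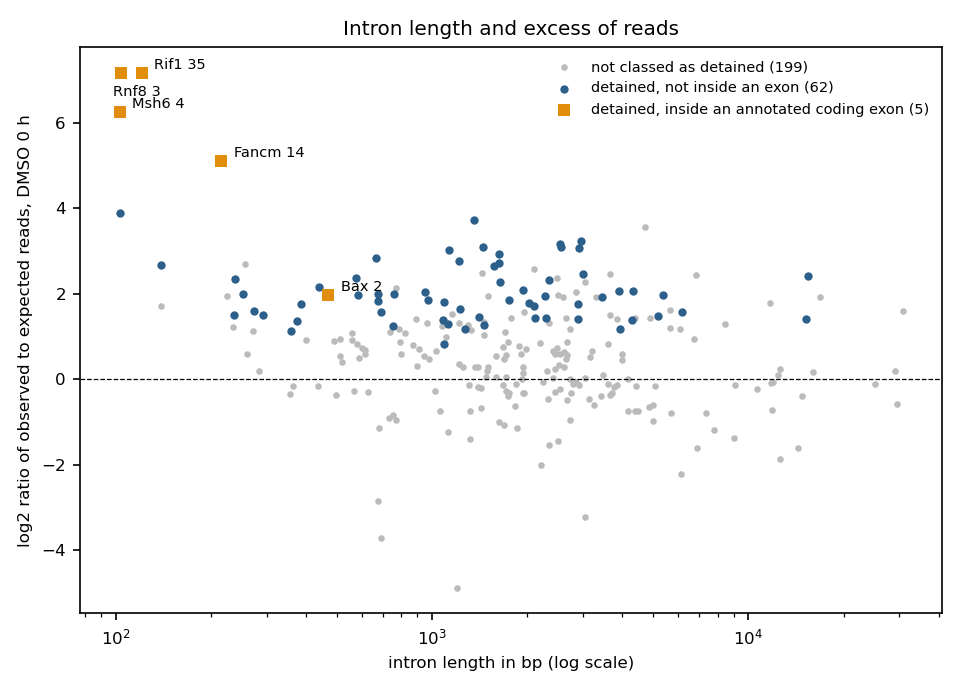
The log2 ratio of observed to expected reads in DMSO at 0 h against intron length (log scale) for the 266 member introns with a value. Orange squares (labelled coding exon) are the 5 detained intervals inside an exon of a protein-coding transcript, and they include the 4 highest points. The interval is annotated as coding sequence in all but Bax intron 2. The other 62 detained introns (blue) reach 3.88, and the dashed line marks equality.

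The expected reads followed intron length within each gene. Over 24 member genes with at least 5 introns in DMSO at 0 h, Spearman's rho between expected reads and length had a median of 1.00 and a minimum of 0.90, as a description over introns that share a gene and its libraries. The same rho for observed reads had a median of 0.07 and ran from −0.80 to 0.92. In Msh6, expected reads in DMSO ran from 29.0 for the 103 bp interval to 907.5 for intron 2, of 3054 bp, in the authors' deposited table. The median length was 1270 bp among detained members and 2108 bp among the other members, and 1562 bp and 2044 bp over the same classes of the whole table. Of 57 detained introns between coding exons of a matched transcript, 43 (75.4%) lay in its downstream part, past the midpoint of its introns. Among other member introns so placed, 123 of 188 (65.4%) did. Positions over the whole table were not taken, and the difference was not tested.

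By exact length at a constant offset per gene, 250 of the 274 member introns, 59 of them detained, matched an intron of the same gene in GENCODE M21. Of these 59, 57 lay between coding exons and 2 matched non-coding transcripts only, namely intron 3 of Rnf8 and intron 20 of Blm. Introns 19 and 21 of Lig1, neither of them detained, overlap almost wholly and carry identical values, so they are a single measurement.

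A wider list of 110 other genes of the DNA damage pathways placed the members in context. Of these, 91 had a listed intron. Of their 353 introns 66 were detained (18.7%), in 45 genes (49.5%), where the members had 24.5% and 73.5% and all introns and genes listed had 15.5% and 34.6%. By the authors' deposited table, reads rose in 6 of the 66 at 2 h (9.09%, against 5.47% of all detained introns). Reads fell in 2 of the 66, a smaller share than the 4.17% of all detained introns in the authors' deposited table. The median log2 ratio of the 66 was 0.08. The wider list and the members were not tested against each other. Tdp1, which removes proteins stuck to DNA ends, had both introns 11 and 12 among those that rose, and intron 12 had 53.4 normalised reads in KH-CB19 and 10.1 in DMSO (log2 ratio 2.40, adjusted p = 1.24e-05), per the authors' deposited table. The others that rose were introns of Gtf2h1, Dna2, Rpa2 and Rev1, between 0.85 and 1.17 on the log2 scale of the authors' deposited table. The introns that fell belonged to Rtel1, a helicase, and Mdm4, an inhibitor of p53, at −0.86 and −0.64 on the log2 scale of the authors' deposited table.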

How the data were processed

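Members and lists were chosen with earlier results of these data known. The values are from 1 table of group means that the authors made from 2 libraries a group. Its columns, per the file headers, hold observed and expected mean read counts at 0 h, normalised mean reads (a signal) at 2 h for detained introns, log2 ratios, and adjusted p-values, all deposited by the authors. Observed 0 h means were multiples of 0.5, and introns with few reads carried a word for low coverage in place of a value. TopHat2 2.0.9, Bowtie 1.0.0, Cufflinks 2.1.1, bedtools 2.17.0, SAMtools 0.1.19 and DESeq are named, with the build mm9, per the submitters' processing notes. Settings, the making of expected reads and the method of p adjustment were not given in the sources used here.

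A planned count model could not be fitted to group means, so the authors' ratios and p-values were described with pandas 2.3.3 and scipy 1.17.1, and the counting code was tested on simulated data. The depth of whole libraries is unknown. Introns were named if past 0.05 at 2 h, among the 10 largest log2 ratios with a mean of at least 20 reads, among the 8 highest or 5 lowest 0 h ratios past 0.05 with at least 50 observed reads, or on genes with at least 3 detained introns. Other genes of the wider list were named only if past 0.05 at 2 h. Further introns were named after their values were seen. Introns were placed by matching lengths to GENCODE M21. Alternatives covered the threshold, minimum reads, pseudocounts and genes as units. Intervals without a match were placed by the offset that the matched introns of their gene shared. All printed coordinates are those of mm9.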

Additional observations from a re-analysis of the deposited data

How the results depend on the processing

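The 2 introns that rose at 2 h, and no others, passed at thresholds of 0.01 and 0.1, with a mean of at least 50 reads, and with genes as units. The median log2 ratio of 0.0251 was 0.0247 with a pseudocount of 10, 0.24 over introns with at least 50 reads and 0.0868 over genes. It was 0.048 without the 5 intervals inside exons of protein-coding transcripts, an alternative chosen after seeing the data. Introns above expectation numbered 34 in KH-CB19 and 56 in DMSO when at least 50 observed reads were required, against 88 and 95. Observed reads at 0 h are unscaled and summed to less in KH-CB19, so these counts cannot be compared between the groups. The shares over all introns at this cut were not taken. The detained share of 24.5% was 68.6% among introns with at least 50 observed reads and 73.5% over genes. Without the introns matched to Cmtr1, also chosen after seeing the data, it was 24.8%. No paired analysis was possible because the table holds group means, and leaving out each library could not be run for the same reason. Ratios spread more among introns with few reads, such as Prkdc intron 58, so single ratios there are uncertain.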
